A study of Danio rerio with 28 samples.

Results

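The genes described here encode the proteins of the small ribosomal subunit. They were followed in zebrafish cells sorted to study primordial germ cells, the embryonic precursors of eggs and sperm. Members were the listed genes whose names begin with rps and a digit, in either letter case and without the rps6k kinases, together with rpsa and faua, whose products also sit in the small subunit. This gave 35 members among 1017 listed genes, beside 46 genes of the large subunit. Of the 35 names 34 matched a RefSeq symbol. RPS17L did not, and it is reported by the name the table gives. Names of the kind rps26 and rps26l, or rps27.1 and rps27.2, denote copies whose reads may be shared between them, so the level of a single copy, RPS17L included, is uncertain.

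A ribosome is built from a small and a large subunit, each a folded ribosomal RNA with one copy of most of its proteins. The small subunit binds the messenger RNA, finds the start codon and checks the pairing of each transfer RNA, whereas the large subunit joins the amino acids. An egg is laid with a store of ribosomes and of maternal messenger RNA, and in zebrafish the embryo's own genome is switched on during the blastula stages. Messenger RNAs of ribosomal proteins share a pyrimidine tract at their start, through which their translation is controlled together.

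Cells were sorted one per well from embryos of maternal-zygotic tdrd6a-/- mothers, called mutant here, and from embryos of wild-type mothers. The protein, which has Tudor domains, belongs to the germ plasm. The series asks how germ plasm messenger RNAs come to be loaded into germ cells. The wild-type mothers carried the transgene kop::egfp-f-nos1-3'UTR, which marks germ cells with a membrane green fluorescent protein, and whether the mutant mothers carried it too is not stated. RNA was read with CEL-seq, which counts the 3' end of each transcript, so that levels of different genes needed no scaling by length.

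Mutant samples were 5 plates with 264 cells at 3.5 hours post fertilization (hpf), 4 plates with 111 cells at 8 hpf and 3 plates with 156 cells at 24 hpf. Wild-type samples were 5 plates with 205 cells at 3.5 hpf, 4 plates with 101 cells at 8 hpf, 5 plates with 196 cells at 24 hpf and 1 plate with 76 cells at 2 weeks. The replicate is the plate. Plates are not stated to come from separate clutches or mothers, so each p-value measures the spread between plates, which may be technical.

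Each deposited value was a whole number plus 0.1, and the whole number is called transcripts. The sources used here do not say whether these are molecules or reads. The median cell had 400 of them (156 to 855) and plates summed 1027 to 32018 transcripts. A share of the cell total is therefore a share of the listed genes, not of all RNA. Plates under 10 cells were those with 4 cells at wild-type 3.5 hpf, 6 cells at wild-type 8 hpf and 2 cells at mutant 8 hpf.

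Germ cell markers, 10 listed genes such as vasa and dazl, were present in every group, but single markers, vasa and dazl included, went undetected in some plates. Their sum was 3.81 to 11.6 transcripts per cell in mutant plates of 3.5 hpf and 4.1 to 15.3 in wild-type plates of 3.5 hpf. At 8 hpf the sum was 2.00 to 4.65 in mutant and 1.67 to 12.7 in wild-type plates. At 24 hpf it was 0.611 to 5.17 in mutant plates and 1.07 to 8.70 in wild-type plates, and 188 of the 352 cells held no nanos3 transcript. In the plates of 3.5 hpf 1 to 11 cells each held a nanos3 transcript, the 11 being among 67 cells of mutant plate 2. At 2 weeks 1 of 76 cells did, so the groups were not uniformly cells with this marker. Muscle markers, 11 listed genes, summed to 0.95 to 5.56 transcripts per cell in mutant and 1.03 to 6.88 in wild-type plates of 24 hpf, against at most 0.0676 in the plates of 3.5 hpf.

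One plate stood apart from its stage. Mutant plate 1 of 8 hpf, which is 47 cells of the first 48 wells of a plate whose last 48 wells are described as heterozygous, held 5.62 muscle, 8.47 epidermis and 5.36 blood transcripts per cell, with all 11, 10 and 4 listed markers detected. The other plates of 8 hpf held 0.0385 to 0.528 muscle and 0 to 0.0556 blood transcripts per cell, and 0 to 4.19 for epidermis. The heterozygous wells of the same plate were alike, with 6.19 muscle and 5.73 blood transcripts per cell. The part of these markers in the results was not tested, and where leaving out the plate changed a call or moved a printed count or median of the members by over 1.5 times, both values are given.

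Small subunit transcripts took a several-fold larger share of the cell at 24 hpf than at the earlier stages, in both genotypes. In mutant cells the share was 4.67, 4.35, 4.05, 4.39 and 4.11% of transcripts in the 5 plates of 3.5 hpf, 12.2, 5.08, 6.19 and 2.43% at 8 hpf, and 17.1, 12.8 and 14.5% at 24 hpf. In wild-type cells it was 2.65, 3.44, 3.31, 3.52 and 3.0% at 3.5 hpf, 5.58, 3.60, 4.58 and 3.49% at 8 hpf, and 15.0, 14.8, 14.9, 15.2 and 12.3% at 24 hpf. All plates of 24 hpf lay above all plates of 8 hpf of their genotype, and among wild-type plates 8 and 3.5 hpf overlapped only in the lowest 8 hpf plate. The plate of 2 weeks held 14.4%, within the range of the wild-type plates of 24 hpf.

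**Figure D1:**
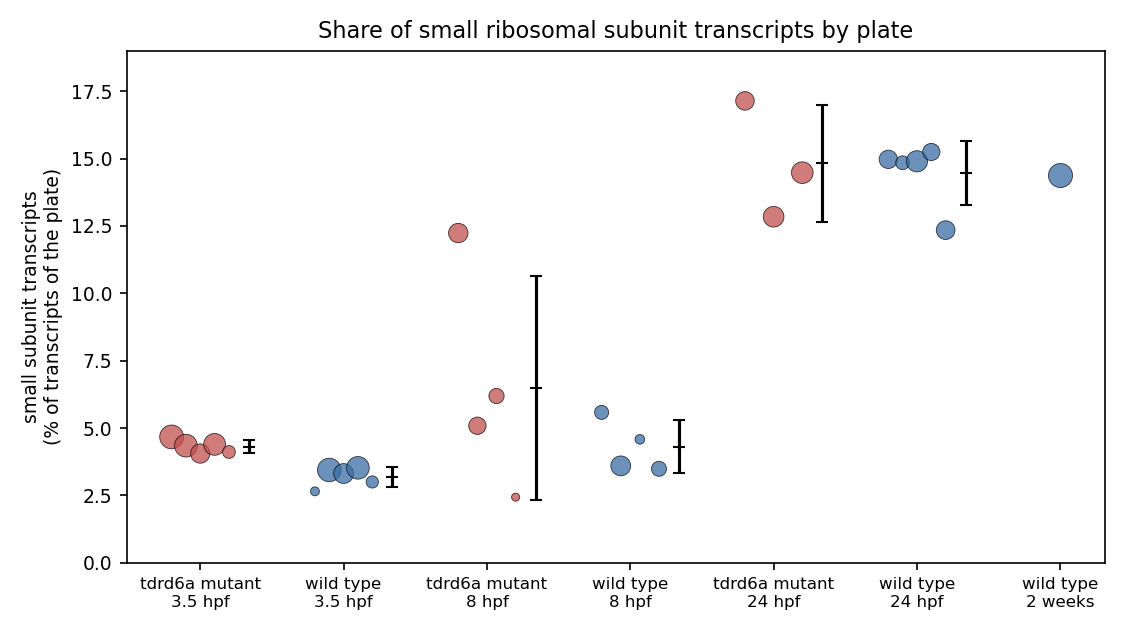
Share of small subunit transcripts among all listed transcripts (percent, vertical axis) in each plate, by stage, with mutant and wild-type plates side by side. Points are plates, sized by their number of cells, and bars give the mean and SD. The plates of 24 hpf lie between 12.3 and 17.1%, and the plates of 3.5 hpf between 2.65 and 4.67%. One mutant plate of 8 hpf stands at 12.2%, near the 24 hpf plates.

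The mean share in mutant plates was 4.31 ± 0.246% at 3.5 hpf, 6.49 ± 4.14% at 8 hpf and 14.8 ± 2.17% at 24 hpf (SD, n = 5, 4 and 3). The wild-type mean was 3.19 ± 0.360%, 4.31 ± 0.979% and 14.5 ± 1.19% (SD, n = 5, 4 and 5). From 8 to 24 hpf the mean share was thus 2.28 times larger in mutant and 3.35 times larger in wild-type plates, and 3.24 times in the mutant without mutant plate 1 of 8 hpf. The mutant excess of 8 over 3.5 hpf, 2.17 percentage points, was 0.254 points without mutant plate 1 of 8 hpf, and it was 3.52 points without the plate of 2 cells. In transcripts per cell the members summed to 14.7 ± 0.931, 31.6 ± 23.5 and 83.7 ± 18.6 in mutant plates and to 11.8 ± 1.12, 19.8 ± 5.94 and 77.1 ± 12.2 in wild-type plates at 3.5, 8 and 24 hpf.

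The ratio of the subunits stayed within a narrow range while the level of both changed. Small subunit transcripts made up 45.5 ± 4.78%, 45.4 ± 3.04% and 45.8 ± 0.435% of all ribosomal protein transcripts in mutant plates at 3.5, 8 and 24 hpf. In wild-type plates they made up 44.5 ± 2.40%, 47.3 ± 2.45% and 46.2 ± 0.854%, and in the plate of 2 weeks 43.2%. The plates of the 3 stages overlapped in both genotypes. The share of the cell taken by the large subunit was 5.25 ± 0.994%, 7.48 ± 4.28% and 17.5 ± 2.25% in mutant plates, against 3.98 ± 0.568%, 4.83 ± 1.35% and 16.9 ± 1.33% in wild-type plates.

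Levels differed between members by more than an order of magnitude, and their order was not fixed. The highest means over the 6 groups belonged to rps12 and rps20, proteins of the beak and head of the subunit, with 2.29 and 2.03 transcripts per cell, and to rps9, rpsa and rps2, with 1.92, 1.92 and 1.86. Rps9 lies in the body, rpsa is the laminin receptor protein of the platform side, and rps2 lines the channel through which the messenger RNA enters. At the other end, rps8a ranked last in each of the 6 groups of embryos, with 0.0692 ± 0.0510 transcripts per cell in mutant and 0.0248 ± 0.0310 in wild-type plates of 3.5 hpf (SD, n = 5 each). Across the 35 genes the order in mutant and wild-type plates of 24 hpf had a Spearman coefficient of 0.965, whereas wild-type levels of 24 and 3.5 hpf gave 0.511. These coefficients are descriptions over genes, which are not independent replicates, and the levels of the earlier stages rest on fewer transcripts.

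**Figure D2:**
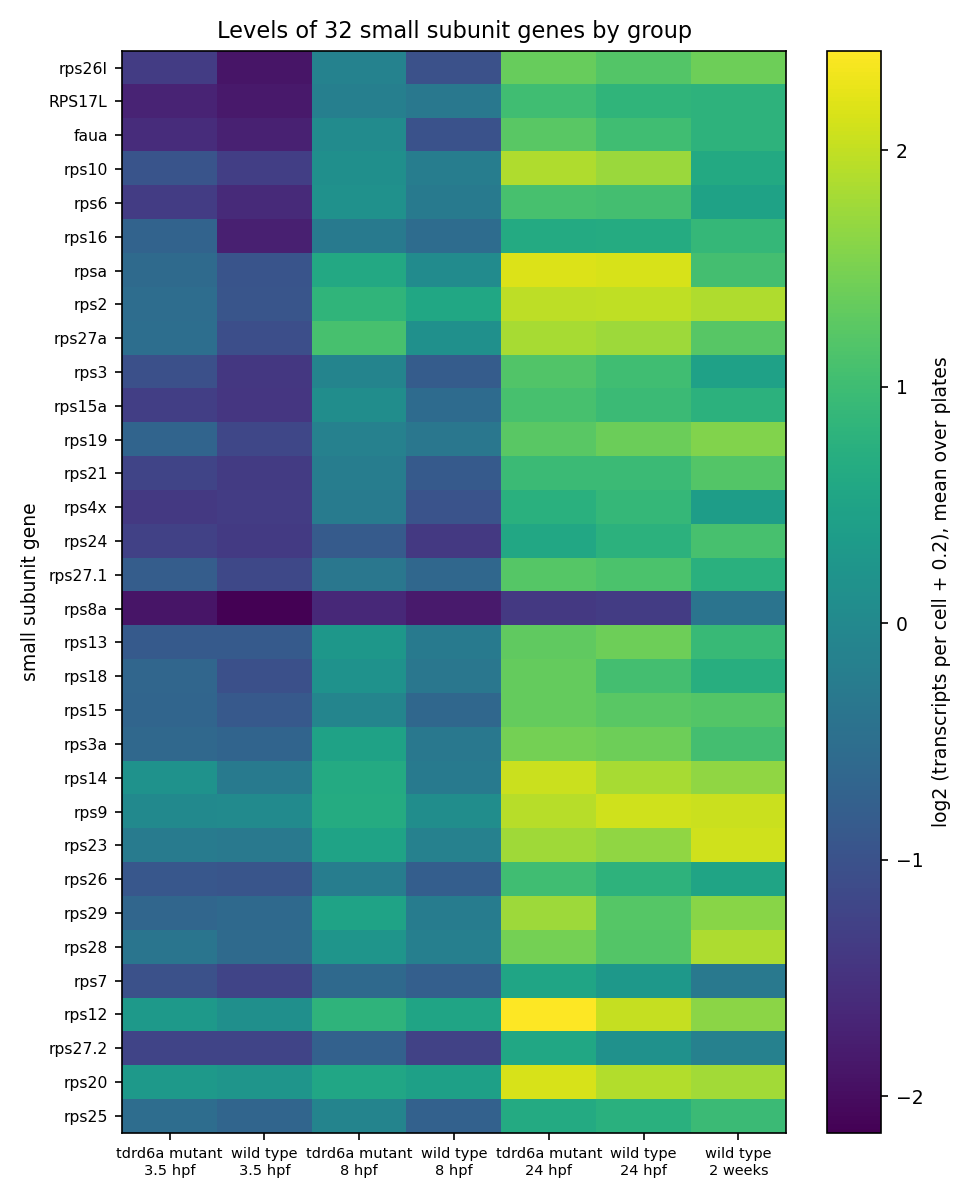
Mean level of 32 of the 35 genes, as log2 of transcripts per cell plus 0.2 (colour), in mutant and wild-type cells of 3.5, 8 and 24 hpf and in the plate of 2 weeks. Genes are sorted by their fold from 3.5 to 24 hpf. Every gene drawn has a higher value at 24 than at 3.5 hpf, with rps26l, RPS17L and faua among the most.

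Rps12 shows the course of an abundant member. It had 0.892, 1.03, 1.11, 1.07 and 1.19 transcripts per cell in the mutant plates of 3.5 hpf, 3.02, 1.5, 1.23 and 0.5 at 8 hpf, and 6.38, 5.37 and 3.70 at 24 hpf. Wild-type plates had 0.250, 0.736, 0.898, 1.14 and 1.43 at 3.5 hpf, 1.48, 1.1, 1.33 and 1.04 at 8 hpf, and 5.07, 4.1, 4.04, 3.69 and 2.42 at 24 hpf. Plates of 24 hpf were all above those of 8 hpf, while plates of 8 and 3.5 hpf overlapped in both genotypes. Between 24 and 8 hpf the log2 difference was 1.77 in mutant (SE 0.40, adjusted p = 0.00363) and 1.47 in wild-type plates (SE 0.35, adjusted p = 0.0015; limma with Benjamini-Hochberg adjustment, as for all adjusted p below).

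The tests were made on log2 of the plate mean plus 0.2 transcripts, over 910 genes that passed a filter on low values, among them all 35 members. From 8 to 24 hpf 34 of the 35 members rose in wild-type plates and none fell, against 24.1% of all tested genes that rose and 6.92% that fell. In mutant plates 31 of 35 rose and none fell, against 15.9% and 2.75% of all genes. The median log2 difference of the members was 1.40 in mutant plates, where the median of all genes was 0.12, and 1.70 in wild-type plates, where it was also 0.12. Rps8a was the exception in both genotypes. In mutant plates rps25 and rps27a were among the others that missed the threshold, and both passed it without mutant plate 1 of 8 hpf.

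The plates of the stages were separate for most members in wild type. Every wild-type plate of 24 hpf lay above every wild-type plate of 8 hpf for 34 members, against 19.6% of all genes, and below for none, against 6.15%. In the mutant the plates lay apart and higher at 24 hpf for 16 members, against 12.6% of all genes, and lower for none, against 4.62%. Without mutant plate 1 of 8 hpf 33 members lay apart in the mutant. The test then called 34 members higher, where 200 of 895 tested genes were called higher. Without the plate of 2 cells it called 17 members. The mutant count also rested on mutant plate 1 of 24 hpf, without which 9 members were called. It rested as well on a spread shared over all 6 groups, since a fit of the plates compared alone called 1. For these other fits, and for plates lying apart without mutant plate 1 of 8 hpf, shares of all genes are not given here.

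**Figure D3:**
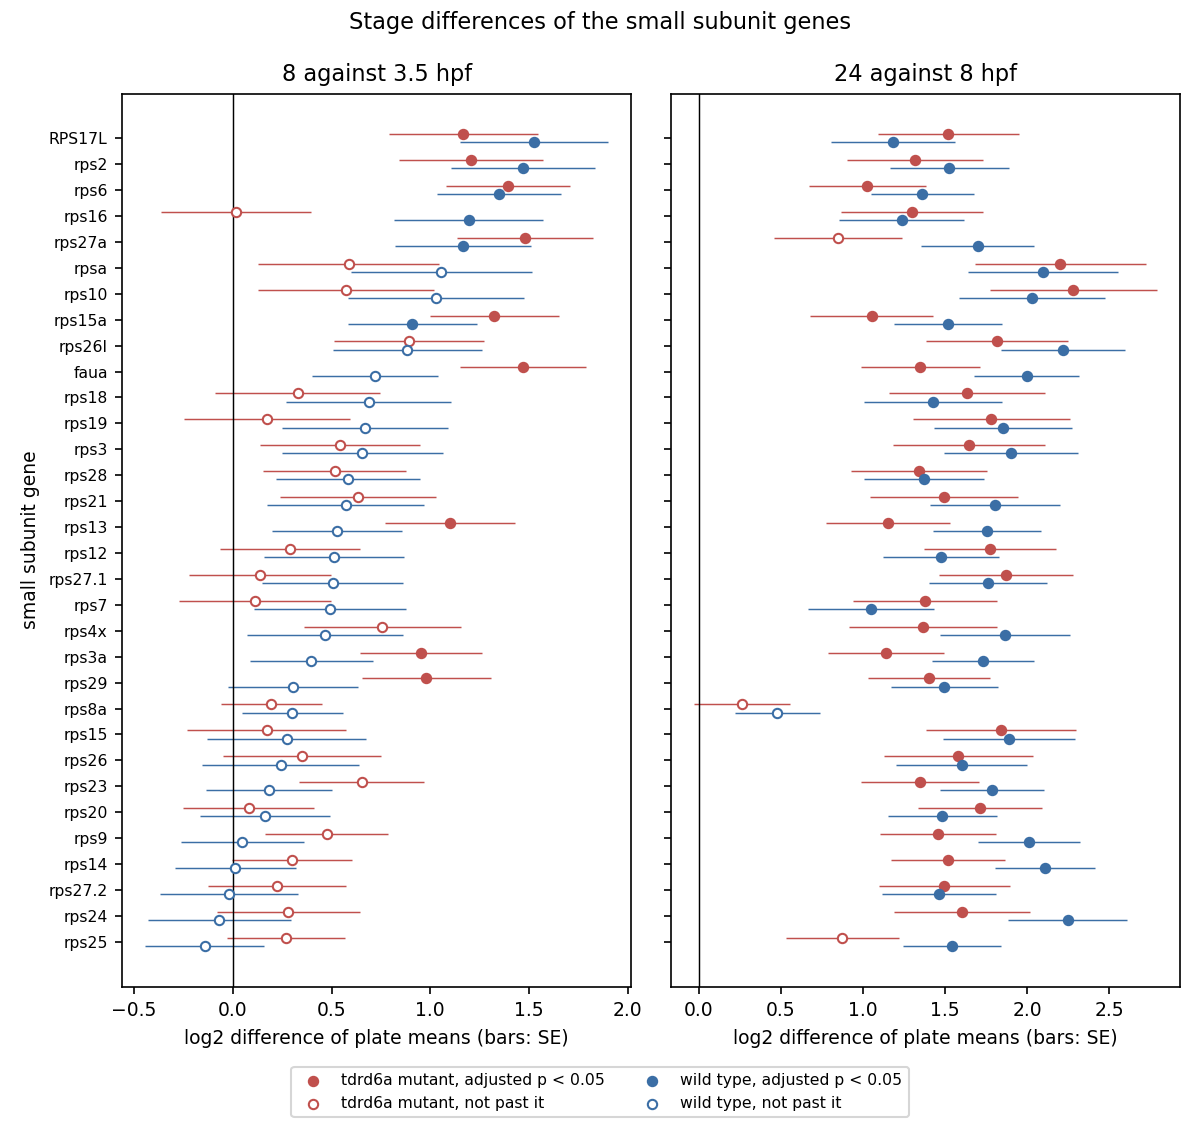
Log2 differences with SE of 32 of the 35 genes between 8 and 3.5 hpf and between 24 and 8 hpf, on the scale of log2 of transcripts per cell plus 0.2, with mutant in red above wild type in blue for each gene. Filled points passed an adjusted p of 0.05. Between 24 and 8 hpf all points lie right of 0, from 0.26 to 2.28 in mutant and from 0.48 to 2.25 in wild type, and between 8 and 3.5 hpf fewer points are filled.

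Rpsa and rps10 lay farthest above the members' median difference of 24 over 8 hpf in mutant plates. Rpsa had 4.95, 3.94 and 4.1 transcripts per cell in mutant plates of 24 hpf, against 1.32 ± 1.47 in those of 8 hpf (SD, n = 4). Wild-type plates had 5.1, 4.60, 4.53, 4.26 and 2.65 at 24 hpf, against 1.19, 0.673, 0.833 and 0.640 at 8 hpf, with no overlap. The log2 differences were 2.20 (SE 0.52, adjusted p = 0.00499) in mutant and 2.1 (SE 0.46, adjusted p = 0.000641) in wild-type plates. Rps10, a beak protein, had 4.21, 3.06 and 3.08 transcripts per cell in mutant plates of 24 hpf and 3.88, 4.0, 2.93, 2.86 and 1.95 in wild-type plates of 24 hpf. Its log2 differences of 24 over 8 hpf, 2.28 (SE 0.51, adjusted p = 0.00319) in mutant and 2.03 (SE 0.45, adjusted p = 0.000641) in wild type, were among the highest of the members.

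Among proteins of the body, rps24, one of the genes mutated in Diamond-Blackfan anaemia in humans, had the highest wild-type difference. It had 1.12, 1.55, 1.32, 1.97 and 1.70 transcripts per cell in wild-type plates of 24 hpf, against 0.190, 0.245, 0 and 0.280 at 8 hpf. The groups did not overlap, and the log2 difference was 2.25 (SE 0.36, adjusted p = 3.14e-05). In mutant plates it was 1.6 (adjusted p = 0.00838). Rps9 had 3.61 ± 0.471 transcripts per cell in mutant plates of 24 hpf, against 1.38 ± 0.972 at 8 hpf, with a log2 difference of 1.46 (SE 0.35, adjusted p = 0.00556). In wild-type plates rps9 had 4.04 ± 0.662 and 0.864 ± 0.252, with a log2 difference of 2.01 (SE 0.31, adjusted p = 2.34e-05).

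Rps7, which also has a role in assembly of the subunit, had one of the lowest differences that passed in wild type, 1.05 (SE 0.39, adjusted p = 0.0356), with 1.01 ± 0.312 transcripts per cell at 24 hpf and 0.389 ± 0.172 at 8 hpf.

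Rps8a stayed near the floor throughout. It had 0.310, 0.0370 and 0.2 transcripts per cell in mutant plates of 24 hpf and 0.340, 0.0833, 0.0769 and 0 at 8 hpf. In wild-type plates it had 0.122, 0.15, 0.0877, 0.286 and 0.326 at 24 hpf and 0.143, 0.0612, 0 and 0.120 at 8 hpf. The plates overlapped, and the log2 differences were 0.26 (SE 0.29, adjusted p = 0.639) in mutant and 0.48 (SE 0.26, adjusted p = 0.162) in wild type. Without mutant plate 1 of 8 hpf the mutant difference was 0.54 (adjusted p = 0.165), and it was negative in 2 alternatives given in the closing section. At these levels the added 0.2 transcripts compress a fold change.

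Between 3.5 and 8 hpf a minority of members moved, and some of them did so in both genotypes. Wild-type plates had 7 members higher at 8 hpf and none lower, against 11.6% and 23.1% of all tested genes. Mutant plates had 10 higher and none lower, against 12.1% and 20.4% of all genes. RPS17L, rps15a, rps2, rps27a and rps6 were among those that rose in both. Rps16 rose in wild type, and faua, rps13, rps29 and rps3a rose in the mutant. The median log2 difference of the members was 0.52 in mutant plates and 0.51 in wild-type plates, where the median of all genes was 0.01 and -0.02. Without mutant plate 1 of 8 hpf the mutant median was 0.02, and 5 members were called higher and 1 lower. In that fit 76 of 895 tested genes were called higher and 199 lower. Faua remained called without that plate, whereas rps13 (0.78, adjusted p = 0.0642), rps29 (0.61, adjusted p = 0.138) and rps3a (0.61, adjusted p = 0.117) did not. A single member was also called lower in wild type by limma voom, and a single member in the mutant with plates rescaled to a common total. Without the plate of 2 cells 19 were called higher. With neither that plate nor mutant plate 1 nor any other plate under 10 cells 12 were, with a median of 0.52. Counts of all genes for these fits are not given here.

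Rps6, whose phosphorylation by the S6 kinases follows growth signals, was among the genes with the clearest early difference. It had 0.913 ± 0.592 transcripts per cell in mutant plates of 8 hpf, against 0.193 ± 0.0737 at 3.5 hpf, with a log2 difference of 1.39 (SE 0.31, adjusted p = 0.000802). In wild-type plates it had 0.571, 0.347, 1.0 and 0.600 at 8 hpf, against 0.127 ± 0.108 at 3.5 hpf, with a log2 difference of 1.35 (SE 0.31, adjusted p = 0.00106). Rps6 remained called in the mutant without plate 1 of 8 hpf, with a difference of 1.07 (adjusted p = 0.00731). The plates of 8 and 3.5 hpf did not overlap in either genotype. Members without overlap, all higher at 8 hpf, were 6 in the mutant, against 8.13% of all genes, and 10 in wild type, against 8.35%.

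Rps2, at the entry of the messenger RNA channel, had 1.33, 0.612, 2.33 and 0.880 transcripts per cell in wild-type plates of 8 hpf, against 0.250, 0.458, 0.551, 0.273 and 0.0714 at 3.5 hpf. These did not overlap, and the log2 difference was 1.47 (SE 0.36, adjusted p = 0.00195). In mutant plates the rps2 difference was 1.21 (SE 0.36, adjusted p = 0.00991), and without mutant plate 1 of 8 hpf it was 0.83 and missed the threshold (adjusted p = 0.074).

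Both members made as a fusion with a ubiquitin-like part, rps27a with ubiquitin itself and faua with a ubiquitin-like protein, were the members farthest above the median early difference in the mutant. Rps27a had 3.34, 1.14, 1.19 and 2.00 transcripts per cell in mutant plates of 8 hpf, against 0.432, 0.403, 0.565, 0.623 and 0.5 at 3.5 hpf. Faua had 1.85, 0.472, 0.538 and 0.5 in mutant plates of 8 hpf, against 0.0946, 0.194, 0.196, 0.131 and 0.0625 at 3.5 hpf. Neither overlapped between the stages, also without the first plate. The log2 differences were 1.48 for rps27a (SE 0.34, adjusted p = 0.00106) and 1.47 for faua (SE 0.32, adjusted p = 0.000517), and without mutant plate 1 of 8 hpf they were 1.19 (adjusted p = 0.00829) and 1.09 (adjusted p = 0.00517).

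In wild type rps27a passed and faua did not. Rps27a had 1.81, 0.510, 0.667 and 0.640 transcripts per cell at 8 hpf, against 0, 0.417, 0.347, 0.364 and 0.286 at 3.5 hpf, without overlap and with a log2 difference of 1.17 (SE 0.34, adjusted p = 0.00886). Faua had 0.333, 0.204, 0.5 and 0.160 at 8 hpf, against 0, 0.153, 0.122, 0.152 and 0.0714 at 3.5 hpf, also without overlap. Its difference of 0.72 missed the threshold (adjusted p = 0.0789), and its wild-type difference from 8 to 24 hpf was larger. At 24 hpf faua had 2.93, 1.5, 1.98, 1.6 and 1.07 transcripts per cell, a log2 difference of 2.00 over 8 hpf (SE 0.32, adjusted p = 3.14e-05), and in mutant plates this was 1.35 (SE 0.36, adjusted p = 0.0101). For rps27a the difference of 24 over 8 hpf was 0.85 in mutant (SE 0.39, adjusted p = 0.133) and 1.70 in wild-type plates (SE 0.34, adjusted p = 0.000277). The mutant difference of rps27a was 1.14 and passed the threshold without mutant plate 1 of 8 hpf (adjusted p = 0.0288).

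RPS17L was higher at 8 than at 3.5 hpf. It had 1.45, 0.472, 0.808 and 0 transcripts per cell in mutant plates of 8 hpf, against 0.189, 0.119, 0.109, 0.0656 and 0.0625 at 3.5 hpf. Wild-type plates had 0.905, 0.367, 0.667 and 0.480 at 8 hpf, against 0, 0.0833, 0.184, 0.136 and 0 at 3.5 hpf. The wild-type plates did not overlap, while the mutant plate of 2 cells held none. The log2 differences were 1.17 (SE 0.38, adjusted p = 0.0164) in mutant and 1.52 (SE 0.38, adjusted p = 0.00185) in wild type. Without mutant plate 1 of 8 hpf the mutant difference was 0.75 (adjusted p = 0.116). At 24 hpf RPS17L averaged 1.83 ± 0.611 transcripts per cell in mutant and 1.58 ± 0.209 in wild-type plates, higher than at 8 hpf by 1.52 (SE 0.43, adjusted p = 0.0141) and 1.18 (SE 0.38, adjusted p = 0.015).

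**Figure D4:**
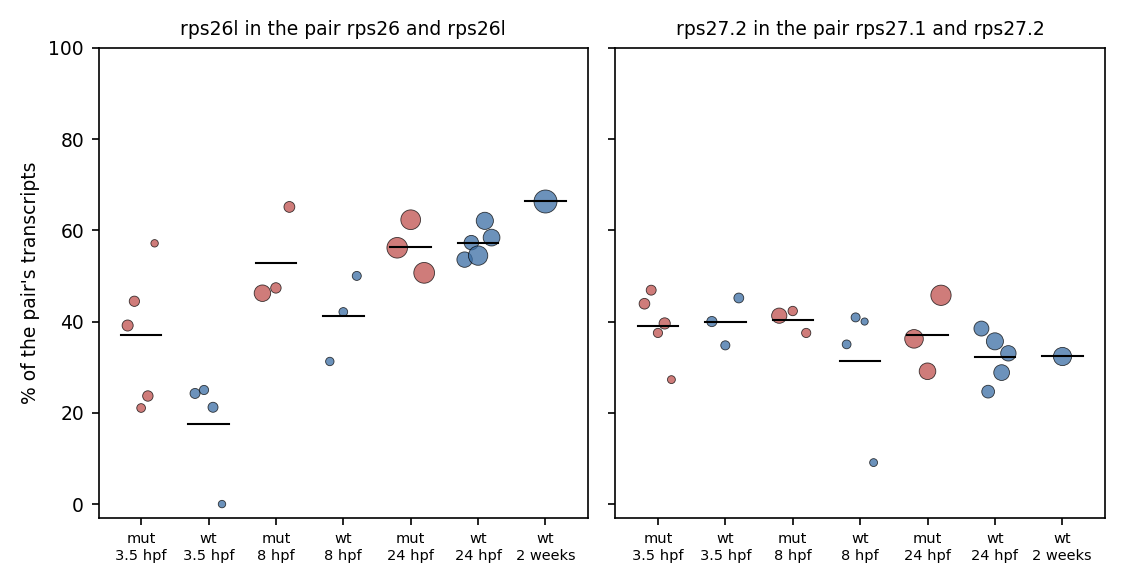
Share of the second copy in its pair's transcripts (percent, vertical axis) for rps26 and rps26l and for rps27.1 and rps27.2, in each plate by stage, mutant beside wild type. Points are plates sized by the pair's transcripts and lines mark group means. The means of rps26l run between 17.6 and 57.2% in the embryos, whereas rps27.2 has means between 31.3 and 40.4% at every stage.

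Rps26 and rps26l, which encode a protein at the exit of the messenger RNA channel, had the lowest share of the second copy, on average, at 3.5 hpf. Rps26l had 2.93, 2.30 and 1.88 transcripts per cell in mutant plates of 24 hpf, against 1.3, 0.5, 1.08 and 0 at 8 hpf. In wild-type plates it had 1.46, 2.75, 1.82, 2.57 and 1.86 at 24 hpf, against 0.238, 0.163, 0.333 and 0.440 at 8 hpf. Both genotypes were without overlap, and the log2 differences were 1.82 (SE 0.43, adjusted p = 0.00492) in mutant and 2.22 (SE 0.38, adjusted p = 4.85e-05) in wild type. For rps26 they were 1.58 (SE 0.45, adjusted p = 0.0155) and 1.6 (SE 0.40, adjusted p = 0.00217). The share of rps26l was 37.1 ± 15.0%, 52.9 ± 10.6% and 56.4 ± 5.82% in mutant plates at 3.5, 8 and 24 hpf, and 17.6 ± 11.9%, 41.1 ± 9.41% and 57.2 ± 3.39% in wild-type plates. These are means over plates with at least 5 transcripts of the pair. In wild type the exact two-sided permutation test over plates gave p = 0.0357 for 24 against 8 hpf and 0.0571 for 8 against 3.5 hpf, the smallest values these numbers of plates allow. Both were 0.229 after Benjamini-Hochberg adjustment over the 8 tests of copy shares (exact permutation). In the mutant the share of rps26l overlapped between the stages, with differences of 3.48 percentage points for 24 against 8 hpf (exact permutation p = 0.6, adjusted 0.8) and 15.8 points for 8 against 3.5 hpf (exact permutation p = 0.179, adjusted 0.476). These were 0.141 and 19.2 points without mutant plate 1 of 8 hpf.

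Rps27.1 and rps27.2, copies of a zinc-binding protein of the subunit, rose together. The log2 differences of 24 over 8 hpf were 1.87 and 1.5 in mutant and 1.76 and 1.46 in wild-type plates. The share of rps27.2 was 39.0, 40.4 and 37.0% in mutant plates at 3.5, 8 and 24 hpf, and 40.0, 31.3 and 32.1% in wild-type plates. Its stage differences had exact permutation p-values of 0.571 to 0.921.

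Between the genotypes no member passed the threshold at any stage. At 3.5, 8 and 24 hpf limma called 0 of 35 members higher or lower, against 0% of all genes higher and 0.22% lower at 3.5 hpf, 0% and 0% at 8 hpf, and 0.11% and 0% at 24 hpf. At an unadjusted p below 0.05 there were 1, 4 and 0 members, among 51, 71 and 21 of all genes, and limma voom called 1, 0 and 0 members. The members' median log2 difference of mutant over wild type was 0.20, 0.32 and 0.09, where that of all genes was -0.02, 0.00 and 0.00, and 31, 27 and 23 of the 35 differences were above 0. The difference at 8 hpf varied with the plates kept and their weights. Without mutant plate 1 of 8 hpf its median was -0.08, with 16 of 35 differences above 0 and 0 members at an unadjusted p below 0.05. Without the mutant plate of 2 cells it was 0.70, with 35 of 35 above 0 and 18 at an unadjusted p below 0.05, and without any plate under 10 cells 0.74, with 35 and 20. With plates weighted by cells it was 0.91, with 35 and 25, by limma voom 0.77, with 35 and 16, and without mutant plate 1 or any plate under 10 cells 0.34, with 30 and 4. Each of these had 0 members past the adjusted threshold. The change of the genotype difference between adjacent stages called 0 members and 0% of all genes in either direction, with 1 and 0 members, and 46 and 38 of all genes, at an unadjusted p below 0.05. For 8 to 24 hpf the members' median change was -0.22, with 10 of 35 above 0. It was -0.63 without the plate of 2 cells, -0.68 without any plate under 10 cells, -0.81 by limma voom and -0.82 with plates weighted by cells, with 0 of 35 above 0 and 7, 6, 8 and 15 members at an unadjusted p below 0.05. The median was 0.17 without mutant plate 1 of 8 hpf, with 21 of 35 above 0 and 0 members at an unadjusted p below 0.05. None of these settings called a member. Counts of all genes at an unadjusted p below 0.05 are given here for the main fit only. The members' unadjusted counts under the alternatives, at 8 hpf and for 8 to 24 hpf, therefore stand without a background here. No conclusion is drawn from them.

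Summed over the members, the genotypes separated at the earliest stage only. At 3.5 hpf every mutant plate lay above every wild-type plate in the share, 4.05 to 4.67% in mutant and 2.65 to 3.52% in wild type, and the mean was 1.35 times as high. At 8 and 24 hpf the ranges overlapped, and at 24 hpf the means differed by 0.359 percentage points, less than the SD of either genotype. A sum over members carries no p here, since the members were chosen with the results known.

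Single members without overlap between the genotypes were few, and they are named after their values were seen. Rps16, a head protein near the decoding site, had 0.365, 0.328, 0.370, 0.377 and 0.625 transcripts per cell in mutant plates of 3.5 hpf, against 0, 0.125, 0.143, 0.0758 and 0.143 in wild-type plates. The log2 difference was 1.05 (SE 0.36, adjusted p = 0.548), and limma voom on summed transcripts gave the one call counted above for it. Rps14, of the platform, had 0.934 ± 0.0642 transcripts per cell in mutant and 0.618 ± 0.168 in wild-type plates of 3.5 hpf, with a difference of 0.49 (adjusted p = 0.866). Only rps16 and rps14 were without overlap at 3.5 hpf, against 0.549% of all genes higher in this way, none at 8 hpf, against 0.769%, and rps29 at 24 hpf, against 0.989%. Rps29, another head protein, had 4.02, 2.67 and 2.80 transcripts per cell in mutant plates of 24 hpf, against 1.95, 2.20, 2.60, 2.57 and 1.26 in wild-type plates, with a difference of 0.55 (SE 0.36, adjusted p = 1).

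For rps16 the courses of the genotypes can be set side by side. The log2 difference of 8 over 3.5 hpf was 0.02 in mutant plates (SE 0.38, adjusted p = 0.98), or -0.53 without mutant plate 1 of 8 hpf (adjusted p = 0.233), and 1.19 in wild-type plates (SE 0.38, adjusted p = 0.0143). At 8 hpf the mutant plates held 1.70, 0.472, 0.346 and 0 transcripts per cell and the wild-type plates 0.619, 0.265, 0.667 and 0.400, with overlap. The test of the difference between these changes gave -1.18 (SE 0.54, adjusted p = 0.922). At 24 hpf the means were 1.35 ± 0.485 in mutant and 1.38 ± 0.198 in wild type.

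The plate of 2 weeks, a stage at which germ cells have settled in the gonad, held the members at a summed level of 68.8 transcripts per cell, against 77.1 ± 12.2 in wild-type plates of 24 hpf. With a single plate there is no test, and the intervals given are exact Poisson 95% intervals that cover counting error only. The order of members had a Spearman coefficient of 0.752 between the plate of 2 weeks and the mean of wild-type 24 hpf over the 35 genes, where each wild-type plate of 24 hpf gave 0.860 to 0.940 with the mean of the other plates. Members above all 5 wild-type plates of 24 hpf were 5, against 22.7% of all genes, and 10 were below all of them, against 21.6%. The other 20 lay within the range. The counts above and below were of the same order as the shares of all genes, so they do not set the members apart.

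Rpsa and rps10, among the members with the largest differences at 24 hpf, were the ones farthest below at 2 weeks. Rpsa had 1.87 transcripts per cell (1.57 to 2.20), 0.442 times the mean of wild-type plates of 24 hpf, of which the lowest had 2.65. Rps10 had 1.34 (1.09 to 1.63), 0.430 times that mean. The other members below, named after their values were seen as were rps28 and rps23, included rps6, rps3, rps4x, rps13, rps27.1, rps27.2 and rps26, at 0.636 to 0.799 times the 24 hpf mean. Of these only rps13 had an interval (1.42 to 2.02) that stayed below the lowest wild-type plate of 24 hpf, at 2.12. The intervals of the others reached into the range of those plates.

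Above all plates of 24 hpf were rps8a, rps28, rps23, rps29 and rps16. The intervals of rps29 (2.48 to 3.25) and rps16 (1.38 to 1.97) reached below the highest wild-type plate of 24 hpf, at 2.60 and 1.66. For these counting error alone could place the level within the 24 hpf range. Rps8a had 0.566 transcripts per cell (0.409 to 0.762), 2.91 times the wild-type mean of 24 hpf, and it was still 34 of 35 in rank. Rps28, at the messenger RNA exit, had 3.42, which was 1.64 times that mean, and rps23, at the decoding centre, had 4.07, which was 1.38 times. Rps23 was the highest member at 2 weeks, and it ranked 10 at 24 hpf in both genotypes. The 2 week plate held 6.79 germ cell, 0.250 muscle and 0.5 epidermis marker transcripts per cell and no blood marker transcript.

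At 24 hpf the cells were also divided by whether they held a transcript of nanos3, a germ plasm gene needed for germ cell survival. Of 352 cells 164 held at least 1. The transgene carries the 3' end of a nanos gene, so that reads named nanos3 may come from the reporter, and the 2 sources cannot be told apart. Germ cell markers summed to 4.14 to 12.1 transcripts per cell in the positive cells of the 8 plates and to 0.1 to 0.727 in the negative cells. This division used nanos3, which is one of those markers.

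Small subunit transcripts were abundant in both kinds of cell. Their share was 16.2, 11.5, 14.3, 14.6, 14.7, 15.0, 11.7 and 12% in positive cells of the 8 plates, against 17.5, 13.0, 14.9, 15.0, 15.2, 14.5, 16.2 and 12.9% in negative cells, mutant plates 1 to 3 before wild-type plates 1 to 5. It was lower in positive cells in 7 of 8 plates, with means of 13.7 ± 1.75% and 14.9 ± 1.52%. All positive shares lay above the plates of 8 hpf other than mutant plate 1, which reached 6.19% in the mutant and 5.58% in wild type. Mutant plate 1 of 8 hpf, at 12.2%, lay above the lowest 3 of them. The plates of 8 hpf were not divided by nanos3, so positive cells are set here against all cells of a plate. Depth moved with the division, since the median transcripts per cell averaged 509.6 in positive and 579.8 in negative cells and were lower in positive cells in 8 of 8 plates. Markers of other cell types moved with it too. Neural markers summed to 0.333 to 1.83 transcripts per cell in positive cells and 1.25 to 2.31 in negative cells, and were higher in negative cells in 8 of 8 plates. Epidermis markers summed to 0.286 to 6.33 in positive and 1.3 to 9.08 in negative cells, higher in negative cells in 7 of 8 plates, and muscle markers to 0.778 to 5.67 and 0.167 to 7.56, higher in negative cells in 6 of 8. Their part in the difference was not tested. The share of the small subunit among ribosomal protein transcripts was 45.4% in positive and 46.1% in negative cells.

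**Figure D5:**
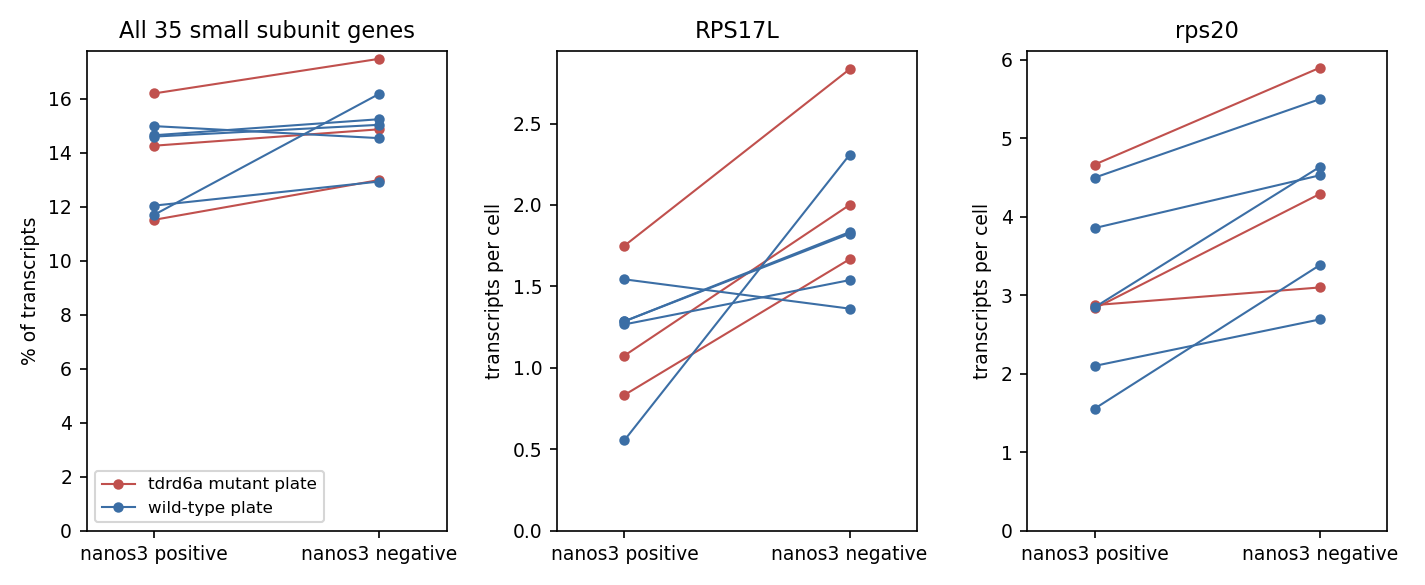
Small subunit share (percent), RPS17L and rps20 (transcripts per cell) in cells with and without nanos3 transcripts at 24 hpf. Each line joins the positive and negative cells of 1 plate, in red for mutant and blue for wild type. Lines run higher in negative cells in 7 of 8 plates for the share and RPS17L and in 8 of 8 for rps20.

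Gene by gene, 34 of 35 members had a negative log2 difference of positive over negative cells, and 2 passed the threshold, RPS17L and rps20, against 3.64% of 797 tested genes that were lower and 2.26% that were higher. RPS17L had 1.75, 0.833, 1.08, 1.29, 1.29, 1.54, 0.556 and 1.27 transcripts per cell in positive cells, against 2.83, 1.67, 2.00, 1.82, 1.83, 1.36, 2.31 and 1.54 in negative cells of the same plates. It was lower in positive cells in 7 of 8 plates, with a log2 difference of -0.62 (SE 0.18, adjusted p = 0.0326). Rps20 had 3.15 ± 1.1 in positive and 4.25 ± 1.13 in negative cells (SD, n = 8), lower in 8 of 8 plates, with a difference of -0.44 (SE 0.13, adjusted p = 0.0372). The median over the members was -0.23, and over all genes -0.08. How many of the 797 genes had a negative difference is not given here, and positive cells held fewer transcripts in 8 of 8 plates. Both calls were lost when arms were rescaled to a common total, where the members' median was -0.08 and that of all genes 0.01. They were lost in 5 of 9 alternatives, this one included, and in 5 of 8 fits that left out 1 plate, namely mutant plates 1 and 3 and wild-type plates 1, 4 and 5.

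Genes of the same machinery, counted from lists chosen with earlier results in view, moved as follows. Of the 46 large subunit genes 38 rose in mutant and 43 in wild-type plates from 8 to 24 hpf and none fell, with medians of 1.39 and 1.66, against the 15.9% and 24.1% of all genes that rose. Rpl27 had 3.54 ± 0.486 transcripts per cell in wild-type plates of 24 hpf, against 0.448 ± 0.243 at 8 hpf, a log2 difference of 2.61 (adjusted p = 3.14e-05). From 3.5 to 8 hpf 12 rose and 1 fell in mutant plates, against 12.1% and 20.4% of all genes, and 10 rose and 1 fell in wild-type plates, against 11.6% and 23.1%. The mutant counts were 4 and 2 without mutant plate 1 of 8 hpf, where 76 of 895 tested genes rose and 199 fell. Rpl12 was the one in wild type, with 0.218 ± 0.165 transcripts per cell at 8 hpf, against 0.748 ± 0.325 at 3.5 hpf (log2 difference -1.20, adjusted p = 0.0127).

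Of 21 translation factors and ribosome-associated genes 4 rose in mutant and 6 in wild-type plates from 8 to 24 hpf, and none fell, shares near the 15.9% and 24.1% of all genes that rose. In the mutant 7 rose without mutant plate 1 of 8 hpf, where 200 of 895 tested genes rose. Those that rose in wild type included btf3, a partner of nascent proteins at the ribosome, with a wild-type difference of 1.81 (adjusted p = 3.14e-05), and the translation factor eif5a, with 1.54 (adjusted p = 0.000688). Most of these factors did not pass, whereas most ribosomal protein genes did.

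Ribosome assembly genes took another course than the proteins they help to assemble. Of 8 such genes 4 rose in mutant and 3 in wild-type plates between 3.5 and 8 hpf, and none fell, where 12.1% and 11.6% of all genes rose. From 8 to 24 hpf none rose, and 2 fell in mutant and 5 in wild-type plates, where 2.75% and 6.92% of all genes fell. Nop56, a core protein of the particles that methylate ribosomal RNA, had 0.679 ± 0.578 transcripts per cell in wild-type plates of 24 hpf, against 3.07 ± 1.36 at 8 hpf, with a log2 difference of -2.0 (adjusted p = 0.000117). Nucleolin, ncl, had 0.432 ± 0.132 and 1.56 ± 0.363, with a difference of -1.48 (adjusted p = 9.98e-05). In mutant plates npm1a and ncl fell, by 1.37 (adjusted p = 0.0139) and by 1.07 (adjusted p = 0.0155) on the log2 scale. Nop56 fell as well without mutant plate 1 of 8 hpf, by 1.25 (adjusted p = 0.0361). No gene of these lists passed between the genotypes at any stage.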

How the data were processed

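Single cells were processed with CEL-seq, per the labels' protocols, and BWA and Zv9, a zebrafish genome build, appear in the submitters' processing notes, BWA without its version. The authors deposited 1 table, taken as signal: whole numbers plus 0.1, with no scaling stated. How reads were counted and cells selected is not given in the sources used here. No doublet caller was run, since cells were sorted singly.

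After subtraction of 0.1, values were averaged over the cells of a plate. Of mutant plate 1 of 8 hpf the first 48 of 96 wells entered and 1 cell beyond the listed barcodes did not. The heterozygous wells and the plate of 2 weeks entered no test, and of a plate labelled with both 8 and 24 hpf the last 48 wells entered only 1 alternative. Genes with a mean of at least 0.1 transcripts in at least 3 plates were tested, 910 of 1017 (107 left out, 77.9% of all cell values at the floor). Limma 3.58.1 in R 4.3.3, with trend and robust moderation, was fitted to log2 of the mean plus 0.2 over 26 plates with 1033 cells in 6 groups, leaving 20 residual degrees of freedom, with Benjamini-Hochberg adjustment over all tested genes and a threshold of 0.05. The nanos3 division used the plate as a block, with at least 5 cells per arm. Copy shares were tested by exact permutation in scipy 1.17.1, a test added after their values were seen. Scripts were tested on simulated data. No 2 cells had identical profiles, although all plates share the same well barcodes.

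Alternatives changed the added constant, the filter, the scaling, the weights, the cells or plates kept and the tool. Plate numbers were shared between groups. Only for mutant 24 against 8 hpf did all same-numbered plates deviate together (correlations 0.314, 0.138 and 0.219), which is a check from the data and not a pairing the labels state. The members, lists and tests were chosen with earlier results of these data known. Named genes were the 5 members of highest mean, members called in the genotype or nanos3 comparisons, the 2 farthest above and below the median of each stage comparison, copies by name and up to 4 genes per list; others are said to be chosen after their values were seen, or are members called in a count. Rps6, rps15a, rps13, rps3a and rps25 fall under the last. The gene tdrd6a is not analysed here, and single values of 3 members are not reported here, although they stay in the sums and counts.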

Additional observations from a re-analysis of the deposited data

Results flagged for a closer look

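Of 110 groups of 4 or 5 plates checked, 4 had a plate whose gap to the nearest other exceeded Dixon's 95% critical value, and chance gives about 1 in 20. Rps16 had 0.625 transcripts per cell in plate 5 of mutant 3.5 hpf, where the other plates had 0.328 to 0.377. Faua had 1.85 in plate 1 of mutant 8 hpf, the plate with muscle and blood markers, where the others had 0.472 to 0.538. Rps27a had 1.81 in plate 1 of wild-type 8 hpf, where the others had 0.510 to 0.667. The small subunit share was 12.3% in plate 5 of wild-type 24 hpf, where the others had 14.8 to 15.2%.

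In wells used in no comparison, the 48 cells described as heterozygous at 8 hpf had a small subunit share of 12.6%, above the wild-type plates of 8 hpf, which had 3.49 to 5.58%. The mutant wells of the same plate had 12.2%, and both sets of wells held muscle and blood markers. The cause was not tested.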

How the results depend on the processing

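Of the values of counts and shares under alternatives, 333 stayed within 1.5 times or within the spread between plates and 23 did not. Members called for mutant 8 against 3.5 hpf were 24 without plates under 10 cells, 28 with plates weighted by cells and 6 to 19 with 1 plate left out. For mutant 24 against 8 hpf they were 20 with plates rescaled to a common total, 17 by limma voom, 1 with only the plates compared and 9 to 34 with 1 plate left out; 9 was without mutant plate 1 of 24 hpf, and 17 and 20 without mutant plates 4 and 2 of 8 hpf. Limma voom called 1 member between the genotypes at 3.5 hpf. In the nanos3 division 0 were called without the filter, rescaled, by voom, without the block or in wild-type plates alone. There 8 were called with at least 2 nanos3 transcripts and 0 to 2 with 1 plate left out. Apart from the fit without mutant plate 1 of 8 hpf, counts of all genes under these alternatives are not given here. The members' counts then stand without a background here, and no conclusion is drawn from them. With the plate number as a replicate block the counts were 6 and 34 for wild type and 10 and 27 for the mutant (8 against 3.5 and 24 against 8 hpf), and 0 between the genotypes and for the change of their difference; apart from mutant 24 against 8 hpf, plates share only a number. Rescaling moved the median of all genes at 8 against 3.5 hpf by -0.20 in mutant and -0.16 in wild type. Some differences changed sign. Rps16 in mutant 8 against 3.5 hpf was -0.12 with 0.1 added, -0.30 rescaled and -0.53 to 0.55 with 1 plate left out. Rps26 was -0.10 to 0.93 with 1 plate left out in mutant 8 against 3.5 hpf, and in wild type -0.22 by voom, -0.0437 without plates under 10 cells, also without mutant plate 1 of 8 hpf, -0.0866 weighted and -0.0749 to 0.38 with 1 plate left out. Rps8a in mutant 24 against 8 hpf was -0.50 by voom and -0.0475 weighted. The cause was not tested. Leaving out mutant plate 1 of 8 hpf with all plates under 10 cells, and without it the other genes of the machinery, were chosen after seeing the data. With the last 48 wells of the mixed plate as wild-type 24 hpf, 0 members were called between the genotypes. Plates of 2 to 6 cells and levels under 0.1 transcripts per cell limit what can be detected at 3.5 and 8 hpf.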
